A study of Homo sapiens with 27 samples.

Results

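The resting transcriptomes of ARCaPM-DR and 22Rv1-DR, sublines of human prostate cancer lines grown resistant to chemotherapy, were set against each other, with no knockdown in either. The comparison took the 3 ARCaPM-DR and the 3 22Rv1-DR control libraries, 6 of the 27 in the series, and all 23228 genes of the table. The control cells of both lines expressed a short hairpin RNA of random sequence, so the only labelled difference between the groups is the line. The same lines carrying either of 2 hairpins against the transcription factor GATA2, called shGATA2a and shGATA2b, gave 3 libraries per line and hairpin that share no library with the controls and served as a repeat of the line difference. Another resistant line, DU145-DR, is quoted for its level only. Each group is a single cell line, and nothing in the labels makes the replicates separate cultures, so the p-values rest on library-to-library spread that may be technical. Line, genetic background and the history of drug selection cannot be told apart in this design.

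Most prostate cancers are luminal adenocarcinomas. In them androgen signalling, with FOXA1, HOXB13 and GATA2, switches on secreted proteases such as KLK3, the prostate-specific antigen. In epithelial-mesenchymal transition, repressors such as ZEB1 shut down junction genes including CDH1, the E-cadherin of adherens junctions, while vimentin and matrix genes come on. Docetaxel binds tubulin, and ABCB1, a membrane pump, exports it.

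Values are the authors' deposited normalised read counts, here called counts, which are reads per gene divided by a size factor per library. They are not divided by gene length, so levels are compared between lines and not between genes. Recovered depth was 9.37 to 19.4 M reads in ARCaPM-DR and 12.16 to 15.89 M in 22Rv1-DR. Replicate 3 of 22Rv1-DR stood apart from its replicates: of 11625 genes averaging 50 or more in that line, 420 lay over 2-fold above and 621 over 2-fold below both others. ARCaPM-DR replicate 2 was next, with 112 of 11234 genes below both of its replicates, and no other control library had more than 35. Of 96269 values above 0 in the 6 libraries, 121 were not a whole number of reads. They lay in 53 genes, and 5 of them were in ARCaPM-DR and the rest in 22Rv1-DR. GATA2, KLK3, TMPRSS2 and IGF2 were among these genes, and the step that made them so is not stated.

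The lines differed across much of the transcriptome. Of 14165 genes tested with limma, 8953 passed an adjusted p of 0.05, or 63.2%. Of these, 4088 (28.9% of the genes tested) were higher and 4865 (34.3%) lower in ARCaPM-DR. A test that the fold itself exceeded 2 called 1862 genes higher (13.1%) and 2365 lower (16.7%), and the median log2 fold change over all genes tested was -0.09. In 9926 genes (70.1%) the libraries of the lines did not overlap. In ARCaPM-DR, 445 of the genes tested had 0 reads in all 3 controls, against 81 in 22Rv1-DR. A gene read at 10 or more in 1 line only had to differ once tested. The number of such members is given for some lists, and other lists hold such members too.

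**Figure D1:**
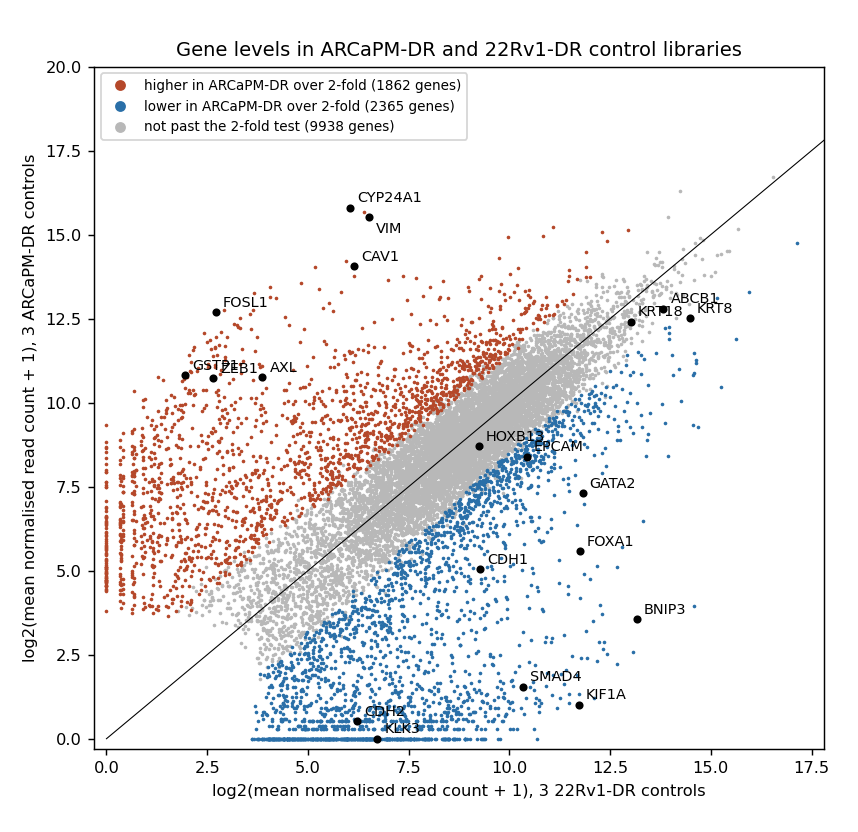
Mean levels of the 14165 genes tested, as log2(mean normalised read count + 1), with ARCaPM-DR controls on the vertical axis and 22Rv1-DR controls on the horizontal axis (3 libraries each). Red points are the 1862 genes higher and blue points the 2365 genes lower in ARCaPM-DR by over 2-fold; labelled genes include VIM and CYP24A1 far above and FOXA1 and SMAD4 far below the line of equal level.

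The difference was present in libraries that carried a GATA2 hairpin instead of the control. In shGATA2a libraries 9292 of 14228 genes passed (65.3%), and in shGATA2b libraries 10149 of 14231 (71.3%). All of the 1862 genes higher by over 2-fold in controls that could be tested there (1819 with shGATA2a and 1821 with shGATA2b) had the same sign, and 96.9% and 97.3% of the 1862 also passed. Of the 2365 lower genes, 96.1% and 96.3% passed with the same sign. The exceptions in sign were 2 genes per hairpin, none of which passed in the opposite direction. They included FLRT3, a cell adhesion protein, which had 72.7, 14.9 and 108 counts in ARCaPM-DR controls and 309, 393 and 286 in 22Rv1-DR controls. With shGATA2b it had 587, 175 and 874 counts in ARCaPM-DR and 332, 374 and 493 in 22Rv1-DR, where the libraries overlapped. Whether the line difference of a gene changed with a hairpin was not tested.

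**Figure D2:**
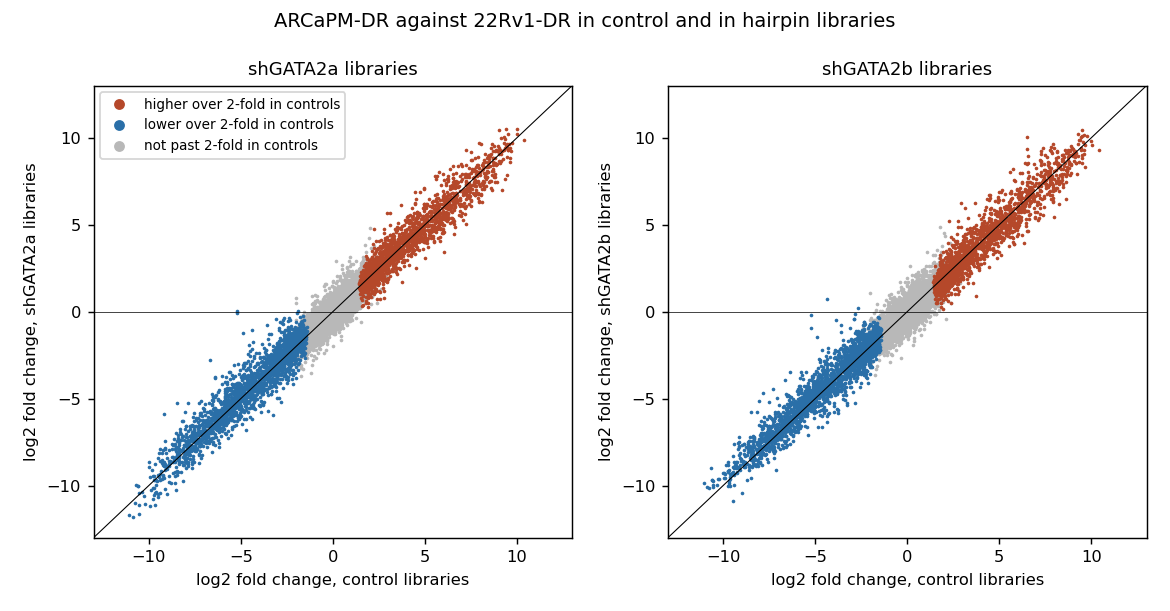
Log2 fold change of each gene, ARCaPM-DR over 22Rv1-DR, in control libraries (horizontal) and in shGATA2a or shGATA2b libraries (vertical), 3 libraries per line in each. The 1862 genes higher (red) and 2365 lower (blue) by over 2-fold in controls lie along the diagonal, with 2 blue genes above 0 on each vertical axis.

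GATA2 itself, the target of the hairpins elsewhere in the series, differed at baseline. It had 173, 153 and 145 counts in ARCaPM-DR controls, against 3444, 4307 and 3052 in 22Rv1-DR controls. The log2 fold change was -4.50 (SE 0.18, limma adjusted p 1.7e-07). DU145-DR controls averaged 1105 ± 167 counts (SD, n = 3). Of the 22Rv1-DR values for GATA2, 2 were not a whole number of reads.

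The luminal programme was low in ARCaPM-DR. KLK3 had 0 reads in all 3 ARCaPM-DR libraries and 98.9, 121 and 93.7 counts in 22Rv1-DR, so it was at least 121-fold lower with 3 reads over the group as the floor. KLK2, a neighbouring kallikrein protease, had 1 read in ARCaPM-DR, against 663, 681 and 785 counts in 22Rv1-DR. FOXA1, the pioneer factor that opens chromatin for steroid receptors, had 48.9, 45.6 and 46.1 counts in ARCaPM-DR, against 4626, 3238 and 2439 in 22Rv1-DR, a log2 fold change of -6.12 (SE 0.24, limma adjusted p 1.6e-07). Every ARCaPM-DR library lay far under every 22Rv1-DR library for these 3 genes. HOXB13, the prostate homeobox factor, did not pass in controls. It had 383, 515 and 353 counts in ARCaPM-DR and 783, 677 and 354 in 22Rv1-DR, and the libraries overlapped. Its adjusted p was 0.206 in limma, and 0.00786 (log2 fold change -0.82) when 22Rv1-DR replicate 3 was left out. It was lower in ARCaPM-DR with shGATA2a (log2 fold change -1.57, limma adjusted p 0.00194) and with shGATA2b (-1.42, limma adjusted p 1.7e-04). In DU145-DR controls HOXB13 averaged 1.16 counts, far under both lines.

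Over the list of luminal and androgen-regulated genes, 20 of 32 tested members were lower (62.5%, against 34.3% of all genes tested) and 6 higher, of 34 in all, with a median log2 fold change of -2.10 against -0.09 over all genes. Of the 32, 13 were under 10 counts in every ARCaPM-DR library and 2 in every 22Rv1-DR library. The exceptions were led by PMEPA1, an androgen-induced gene that is also a TGF-beta target and inhibitor. It had 3493, 2259 and 3883 counts in ARCaPM-DR, against 2.58, 2.98 and 4.89 in 22Rv1-DR. KLK4, an androgen-regulated protease, had 2.64, 0 and 1.92 counts in ARCaPM-DR, against 3272, 3516 and 1701 in 22Rv1-DR. ZBTB16, an androgen-induced repressor, had 1 read in ARCaPM-DR, against 722, 668 and 1721 counts in 22Rv1-DR. ABCC11, an efflux pump, had 3.97, 4.38 and 5.76 counts in ARCaPM-DR, against 5882, 4968 and 5498 in 22Rv1-DR.

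The promoter of KLK3 is shown because it carries an androgen response element and its gene had no reads in ARCaPM-DR. The 250 bases before the RefSeq start are given 5′ to 3′ in the direction of the gene, from GRCh38.p14 (chr19:50854665-50854914, plus strand). Capitals mark AGAACA, the half-site bound by steroid receptors, searched on both strands.
KLK3: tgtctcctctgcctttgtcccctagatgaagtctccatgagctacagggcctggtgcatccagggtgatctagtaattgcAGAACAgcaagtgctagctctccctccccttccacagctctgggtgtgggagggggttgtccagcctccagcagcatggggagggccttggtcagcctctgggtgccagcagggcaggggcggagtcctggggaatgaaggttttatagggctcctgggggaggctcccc
The half-site occurred 1 time in this window. It was found in 12.4% of 27305 RefSeq promoters of this length and in 7.32% of the 10902 whose gene was tested. Among luminal genes with a promoter in the table it was found in 2 of 23 (8.70%), close to those shares.

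**Figure D3:**
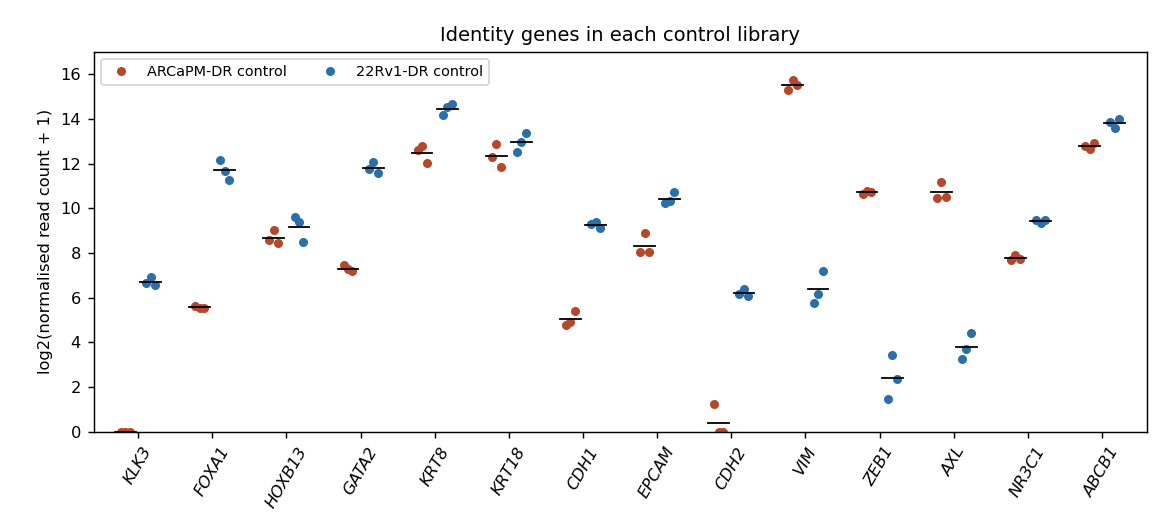
Log2(normalised read count + 1) of 14 identity genes in each control library, ARCaPM-DR left (red) and 22Rv1-DR right (blue) of each pair, with black bars at the mean of 3 libraries on that scale. KLK3, FOXA1 and CDH1 are low and VIM, ZEB1 and AXL high in ARCaPM-DR, whereas HOXB13 and KRT18 overlap and CDH2 is low.

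Nuclear receptors passed about as often as all genes tested. Of 26 tested, 12 were lower (46.2%, against 34.3%) and 5 higher (19.2%, against 28.9%). NR3C1, the glucocorticoid receptor, had 205, 237 and 208 counts in ARCaPM-DR, against 707, 657 and 705 in 22Rv1-DR. NR3C2, the mineralocorticoid receptor, had 1.32, 2.63 and 5.12 counts in ARCaPM-DR, against 384, 318 and 487 in 22Rv1-DR. PPARG, a fatty acid sensor, ran the other way with 350, 211 and 423 counts in ARCaPM-DR, against 0, 3.97 and 0 in 22Rv1-DR. NR2F2, an orphan receptor of mesenchyme, had 4893, 5054 and 6113 counts in ARCaPM-DR, against 119, 111 and 66.8 in 22Rv1-DR. Among 13 steroid metabolism genes tested, 9 were lower (69.2%) and 3 higher (23.1%), and 5 were under 10 counts in every ARCaPM-DR library. UGT2B15, which inactivates androgens by glucuronidation, had 0 reads in ARCaPM-DR, against 537, 198 and 124 counts in 22Rv1-DR. The UGT2B genes are near-identical copies, so how reads were split among them is uncertain. That list lay lower in 22Rv1-DR replicate 3 than in its replicates, by a median of -0.91 on the log2 scale over 9 genes.

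The epithelial side of the comparison was the more uniform. Of 48 tested junction and epithelial identity genes, of 52 in all, 39 were lower in ARCaPM-DR and 5 higher. By over 2-fold, 33 were lower and 3 higher, against 16.7% and 13.1% of all genes tested, and the median log2 fold change was -2.73. Of the 48, 14 were under 10 counts in every ARCaPM-DR library. GRHL2, a transcription factor that maintains epithelial fate, had 0 reads in ARCaPM-DR, against 560, 600 and 756 counts in 22Rv1-DR, at least 737-fold lower. ST14, the surface protease matriptase, had 1 read in ARCaPM-DR, against 1314, 1414 and 1950 counts in 22Rv1-DR. MAL2, a transcytosis protein of polarised cells, had 2.64, 0 and 1.92 counts in ARCaPM-DR, against 3696, 3977 and 2449 in 22Rv1-DR. ESRP1, which directs epithelial splicing, had 5.29, 8.76 and 8.32 counts in ARCaPM-DR, against 2475, 2907 and 2533 in 22Rv1-DR. The last gene was named after its values were seen.

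Part of the epithelial genes was read in ARCaPM-DR. CDH1 had 26.4, 28.9 and 41 counts in ARCaPM-DR, against 623, 672 and 558 in 22Rv1-DR, so it was low and not at 0. EPCAM, an epithelial adhesion protein, had 263, 477 and 263 counts in ARCaPM-DR, against 1192, 1268 and 1674 in 22Rv1-DR. KRT8, a simple epithelial keratin, had 6235, 7073 and 4195 counts in ARCaPM-DR, against 18551, 23818 and 25810 in 22Rv1-DR, a log2 fold change of -1.98 (SE 0.26, limma adjusted p 1.6e-04). Its partner KRT18 had 5003, 7515 and 3729 counts in ARCaPM-DR and 5927, 8105 and 10725 in 22Rv1-DR, with overlapping libraries and a limma adjusted p of 0.105. It passed, lower, when ARCaPM-DR replicate 2 was left out (limma adjusted p 0.0382). With shGATA2a it was also lower (limma adjusted p 0.037), and with shGATA2b it did not pass (limma adjusted p 0.101). KRT7, another simple keratin, was lower in ARCaPM-DR, at 2.64, 0.876 and 1.92 counts in ARCaPM-DR and 58.5, 279 and 275 in 22Rv1-DR. KRT23 ran the other way, with 212, 508 and 278 counts in ARCaPM-DR and 1 read in 22Rv1-DR.

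Promoters of 2 epithelial genes are shown because they hold several copies of the E-box that ZEB1 binds. Each is 250 bases before the RefSeq start, 5′ to 3′ in the direction of the gene, from GRCh38.p14. CRB3, a polarity protein of tight junctions, lies at chr19:6464021-6464270 on the plus strand. AP1M2, an adaptor for sorting to the basolateral membrane, lies at chr19:10587313-10587562 on the minus strand. Capitals mark CAGGTG or its reverse complement CACCTG.
CRB3: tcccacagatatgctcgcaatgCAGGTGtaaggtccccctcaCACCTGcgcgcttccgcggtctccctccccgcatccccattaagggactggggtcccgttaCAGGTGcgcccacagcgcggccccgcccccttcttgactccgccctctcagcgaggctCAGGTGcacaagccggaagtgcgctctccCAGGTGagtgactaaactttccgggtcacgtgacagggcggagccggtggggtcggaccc
AP1M2: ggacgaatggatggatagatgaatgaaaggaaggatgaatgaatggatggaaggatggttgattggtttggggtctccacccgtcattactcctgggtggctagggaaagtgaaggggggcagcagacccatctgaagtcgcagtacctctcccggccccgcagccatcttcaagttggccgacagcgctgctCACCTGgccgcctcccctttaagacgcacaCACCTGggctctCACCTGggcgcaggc
CRB3 held the motif 5 times and AP1M2 held it 3 times. CRB3 had 2.64, 4.38 and 3.84 counts in ARCaPM-DR, against 610, 672 and 1015 in 22Rv1-DR. AP1M2 had 3 reads in ARCaPM-DR, against 1698, 2150 and 1277 counts in 22Rv1-DR. Of the 30 epithelial genes with a promoter in the table, 14 held the motif (46.7%). The share was 17.5% of 27305 RefSeq promoters, 16% of the 10902 whose gene was tested and 2 of 28 (7.14%) for the mesenchymal list. It was 8 of 17 (47.1%) among epithelial genes lower by over 2-fold. These 17 are part of the 30, and most of the tested list was lower. The shares therefore cannot tell whether the motif follows the change within the list. The promoters of CDH1, ST14, ESRP2 and MAL2 are not in the table used.

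The mesenchymal label of ARCaPM-DR held for part of the programme. Of 32 tested mesenchymal regulators and cytoskeletal genes, of 40 in all, 19 were higher in ARCaPM-DR (59.4%) and 9 lower (28.1%). Their median log2 fold change was 2.46. The shares over all genes tested were 28.9% and 34.3%. Among these 32, 6 were under 10 counts in every ARCaPM-DR library and 5 in every 22Rv1-DR library, so their direction was fixed by the filter. VIM, the vimentin filament, had 39675, 55226 and 46745 counts in ARCaPM-DR, against 53.3, 70.4 and 146 in 22Rv1-DR. The log2 fold change was 9.14 (SE 0.34, limma adjusted p 1.3e-07). ZEB1, the repressor of epithelial genes, had 1613, 1762 and 1706 counts in ARCaPM-DR, against 1.72, 9.92 and 4.08 in 22Rv1-DR. AXL, a receptor kinase of invasive cells, had 1424, 2286 and 1452 counts in ARCaPM-DR, against 8.6, 11.9 and 20.4 in 22Rv1-DR. FHL1, a muscle LIM protein, had 2463, 2808 and 2660 counts in ARCaPM-DR, against 1.72, 6.94 and 11.4 in 22Rv1-DR. For all of these the groups were far apart.

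Other defining mesenchymal genes were on the 22Rv1-DR side, against the label. CDH2, the N-cadherin that marks a cadherin switch, had 1 read in ARCaPM-DR, against 70.5, 82.3 and 66 counts in 22Rv1-DR. TWIST1, a transcription factor of mesoderm, had 1 read in ARCaPM-DR, against 412, 562 and 636 counts in 22Rv1-DR, which is 1860-fold lower (95% counting interval 333 to 73496). CALD1, an actin-binding protein of smooth muscle, had 2.64, 7.01 and 3.84 counts in ARCaPM-DR, against 2348, 2267 and 4346 in 22Rv1-DR. QKI, an RNA-binding protein of mesenchymal splicing, had 2.64, 2.63 and 0 counts in ARCaPM-DR, against 616, 559 and 643 in 22Rv1-DR. FN1, the matrix protein fibronectin, had 752, 1513 and 621 counts in ARCaPM-DR, against 5215, 3755 and 4583 in 22Rv1-DR. High VIM and ZEB1 thus sat with low CDH2, TWIST1 and QKI in ARCaPM-DR.

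Basal and hemidesmosome genes were high in ARCaPM-DR. Of 11 tested members, of 18 in all, 10 were higher (90.9%) and 1 lower (9.09%), against 28.9% and 34.3% of all genes tested. Of the 11, 4 were under 10 counts in every 22Rv1-DR library. ITGA6, a subunit of the laminin receptor of hemidesmosomes, had 10724, 15586 and 9845 counts in ARCaPM-DR, against 14.6, 33.7 and 33.4 in 22Rv1-DR. Its partner ITGB4 had 9722, 9978 and 12496 counts in ARCaPM-DR, against 24.1, 41.7 and 47.3 in 22Rv1-DR. LAMA3, a laminin chain of hemidesmosomes, had 1339, 1056 and 1555 counts in ARCaPM-DR, against 4.3, 5.95 and 0 in 22Rv1-DR. CD44, a hyaluronan receptor of basal cells, had 8346, 9740 and 8676 counts in ARCaPM-DR, against 6.88, 21.8 and 23.6 in 22Rv1-DR. The basal identity genes TP63 and KRT5 were not tested, with 0 and 3 reads in ARCaPM-DR and 2 reads each in 22Rv1-DR, so the hemidesmosome genes were high without them.

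Matrix genes were divided by member. Of 33 tested collagens and matrix glycoproteins, 19 were higher (57.6%) and 9 lower (27.3%), against 28.9% and 34.3% of all genes tested. Among these 33, 6 were under 10 counts in every ARCaPM-DR library and 6 in every 22Rv1-DR library. COL3A1, a fibrillar collagen, had 2758, 1013 and 2823 counts in ARCaPM-DR, against 6.02, 17.9 and 16.3 in 22Rv1-DR. LUM, a collagen-binding proteoglycan, had 1 read in ARCaPM-DR, against 661, 532 and 314 counts in 22Rv1-DR. COL4A5, a basement membrane collagen, had 2.64, 0.876 and 0 counts in ARCaPM-DR, against 502, 461 and 2033 in 22Rv1-DR. Its highest value was in 22Rv1-DR replicate 3, where the matrix list as a whole lay above the other replicates by a median of 1.07 on the log2 scale over 22 genes. Among 25 matrix-remodelling genes, 11 were higher and 11 lower (44% each). MMP1, an interstitial collagenase, had 37489, 80755 and 39069 counts in ARCaPM-DR, against 33.5, 75.4 and 141 in 22Rv1-DR. PLAU, the urokinase that activates plasminogen, had 2766, 2721 and 2663 counts in ARCaPM-DR, against 0.86, 1.98 and 6.52 in 22Rv1-DR. LOXL2, a collagen cross-linking oxidase, was on the 22Rv1-DR side, at 5.29, 12.3 and 6.4 counts in ARCaPM-DR and 999, 1247 and 1654 in 22Rv1-DR.

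Surface receptors differed member by member. Of 33 receptor tyrosine kinases, 18 were higher (54.5%) and 10 lower (30.3%), against 28.9% and 34.3% of all genes tested. Among these 33, 6 were under 10 counts in every ARCaPM-DR library and 4 in every 22Rv1-DR library. FGFR2, a fibroblast growth factor receptor, had 193, 246 and 161 counts in ARCaPM-DR, against 0, 0 and 3.26 in 22Rv1-DR. EPHA3, an ephrin receptor, had 3 reads in ARCaPM-DR, against 794, 588 and 807 counts in 22Rv1-DR. NTRK2, the receptor for brain-derived neurotrophic factor, had 0 reads in ARCaPM-DR, against 345, 300 and 437 counts in 22Rv1-DR, at least 416-fold lower. Of 19 integrin subunits, 12 were higher (63.2%) and 4 lower (21.1%). ITGA3 had 8190, 15147 and 9458 counts in ARCaPM-DR, against 552, 658 and 979 in 22Rv1-DR. ITGA11, a collagen receptor of fibroblasts, had 0 reads in ARCaPM-DR, against 61.1, 60.5 and 60.3 counts in 22Rv1-DR. Of 24 Hippo genes and YAP targets, 19 were higher (79.2%) and 3 lower (12.5%), with a median log2 fold change of 1.67. CYR61, a secreted YAP target, had 11483, 13345 and 12776 counts in ARCaPM-DR, against 199, 294 and 478 in 22Rv1-DR. VGLL4, a repressor that competes with YAP for TEAD factors, had 89.9, 129 and 138 counts in ARCaPM-DR, against 1048, 1464 and 1387 in 22Rv1-DR.

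Among AP-1 and ERK feedback genes, 11 of 27 were higher (40.7%, against 28.9% of all genes tested) and 9 lower (33.3%, against 34.3%). The lower share was close to that of all genes tested, so the list was divided while its leading member was not. FOSL1, the Fra-1 subunit of AP-1, had the highest log2 fold change of the genes eligible for naming, with 6446, 6960 and 6339 counts in ARCaPM-DR, against 1.72, 1.98 and 13 in 22Rv1-DR. The log2 fold change was 10.41 (SE 0.56, limma adjusted p 5.8e-07). FOS, another AP-1 subunit, ran the other way, with 39.7, 80.6 and 50.5 counts in ARCaPM-DR, against 758, 700 and 1309 in 22Rv1-DR. ETS1, a transcription factor of invasive and vascular cells, had 10112, 13581 and 10002 counts in ARCaPM-DR, against 4.3, 15.9 and 26.9 in 22Rv1-DR. UBASH3B, a tyrosine phosphatase that acts on receptor signalling, had 7185, 7324 and 6121 counts in ARCaPM-DR, against 3.44, 3.97 and 12.2 in 22Rv1-DR. DLC1, a RhoA GTPase-activating protein, had 2852, 3557 and 2602 counts in ARCaPM-DR, against 0.86, 2.98 and 6.52 in 22Rv1-DR. SRGN, the proteoglycan of secretory granules, had 4539, 3975 and 4323 counts in ARCaPM-DR, against 1.72, 4.96 and 6.52 in 22Rv1-DR. A row whose name in the table is the number 41702 was also among the 15 highest. Its gene is not known from the table, in which 26 rows are named by a number.

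CYP24A1, the mitochondrial enzyme that breaks down active vitamin D, was among the 15 genes with the highest log2 fold changes. It had 52434, 68049 and 50534 counts in ARCaPM-DR, against 24.9, 53.6 and 118 in 22Rv1-DR, and passed with a limma adjusted p of 2.8e-07. VDR, the vitamin D receptor that induces it, was looked up after these values were seen. It was on the opposite side, with 7.93, 13.1 and 10.2 counts in ARCaPM-DR, against 430, 401 and 416 in 22Rv1-DR.

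Lineage factors were divided between the lines. Of 28 tested, 11 were higher (39.3%, against 28.9% of all genes tested) and 13 lower (46.4%, against 34.3%). Among these 28, 5 were under 10 counts in every 22Rv1-DR library and 2 in every ARCaPM-DR library. CDX2, an intestinal homeobox factor, had 118, 93.7 and 136 counts in ARCaPM-DR and 0 reads in 22Rv1-DR, at least 131-fold higher. SOX9, a progenitor factor of ducts and cartilage, had 7236, 11773 and 6405 counts in ARCaPM-DR, against 195, 190 and 139 in 22Rv1-DR. PAX2, a factor of the kidney and genital ducts, had 331, 344 and 397 counts in ARCaPM-DR, against 8.6, 9.92 and 4.89 in 22Rv1-DR. Of 32 tested HOX genes, which record body position, 15 were higher (46.9%, against 28.9% of all genes tested) and 8 lower (25%, against 34.3%). HOXC8 had 680, 803 and 700 counts in ARCaPM-DR, against 29.2, 25.8 and 17.1 in 22Rv1-DR. In the same cluster HOXC13 had 0 reads in ARCaPM-DR, against 249, 307 and 205 counts in 22Rv1-DR, at least 292-fold lower. HOXC10 had 3 reads in ARCaPM-DR, against 328, 475 and 270 counts in 22Rv1-DR.

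Neuroendocrine genes were mostly lower in ARCaPM-DR. Of 16 tested members, of 24 in all, 12 were lower (75%) and 3 higher (18.8%), against 34.3% and 28.9% of all genes tested. Of the 16, 7 were under 10 counts in every ARCaPM-DR library. CHGB, a granin of dense-core vesicles, had 1.32, 0 and 1.92 counts in ARCaPM-DR, against 1526, 1623 and 1660 in 22Rv1-DR. SRRM4, a splicing factor of neurons, had 3.97, 0 and 4.48 counts in ARCaPM-DR, against 3017, 2521 and 1983 in 22Rv1-DR. SYT4, a vesicle calcium sensor, had 2.64, 1.75 and 1.92 counts in ARCaPM-DR, against 1817, 1886 and 4153 in 22Rv1-DR. KIF1A, an axonal kinesin, had 0, 1.75 and 1.28 counts in ARCaPM-DR, against 2475, 2640 and 5020 in 22Rv1-DR. NELL2, a secreted axon guidance protein, had the lowest log2 fold change of the genes eligible for naming, with 4 reads in ARCaPM-DR, against 4357, 3513 and 5318 counts in 22Rv1-DR. 22Rv1-DR thus carried luminal and neuronal genes at once. Whether these came from the same cells was not measured, since the libraries are bulk RNA, in which fewer cells of a type and less RNA per cell cannot be told apart.

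Inflammatory, interferon and antigen presentation genes were on the ARCaPM-DR side. Of 21 cytokine genes tested, 14 were higher (66.7%, against 28.9% of all genes tested) and 6 lower (28.6%, against 34.3%). Among these 21, 8 were under 10 counts in every 22Rv1-DR library and 5 in every ARCaPM-DR library. IL1B, the pro-inflammatory interleukin, had 2109, 2479 and 1703 counts in ARCaPM-DR, against 1.72, 3.97 and 5.71 in 22Rv1-DR. LIFR, the receptor of leukaemia inhibitory factor, had 2 reads in ARCaPM-DR, against 170, 261 and 393 counts in 22Rv1-DR. Of 31 interferon-stimulated genes, 20 were higher (64.5%) and 7 lower (22.6%). Among these 31, 6 were under 10 counts in every 22Rv1-DR library and 2 in every ARCaPM-DR library. OAS2, a sensor of double-stranded RNA, had 1367, 994 and 1356 counts in ARCaPM-DR, against 3.44, 2.98 and 3.26 in 22Rv1-DR. BST2, which tethers budding virus, had 1219, 970 and 1228 counts in ARCaPM-DR, against 3.44, 8.93 and 7.34 in 22Rv1-DR. Of 20 antigen presentation genes, 17 were higher (85%) and 1 lower (5%), with a median log2 fold change of 3.08. Among these 20, 4 were under 10 counts in every 22Rv1-DR library. PSMB8, an immunoproteasome subunit, had 661, 414 and 629 counts in ARCaPM-DR, against 3.44, 4.96 and 8.15 in 22Rv1-DR. CD74, the invariant chain of class II complexes, had 625, 780 and 532 counts in ARCaPM-DR, against 0, 0.992 and 2.45 in 22Rv1-DR. The HLA genes on that list are variable and alike, so reads from an allele far from the reference may be lost, and their size of change is uncertain.

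**Figure D4:**
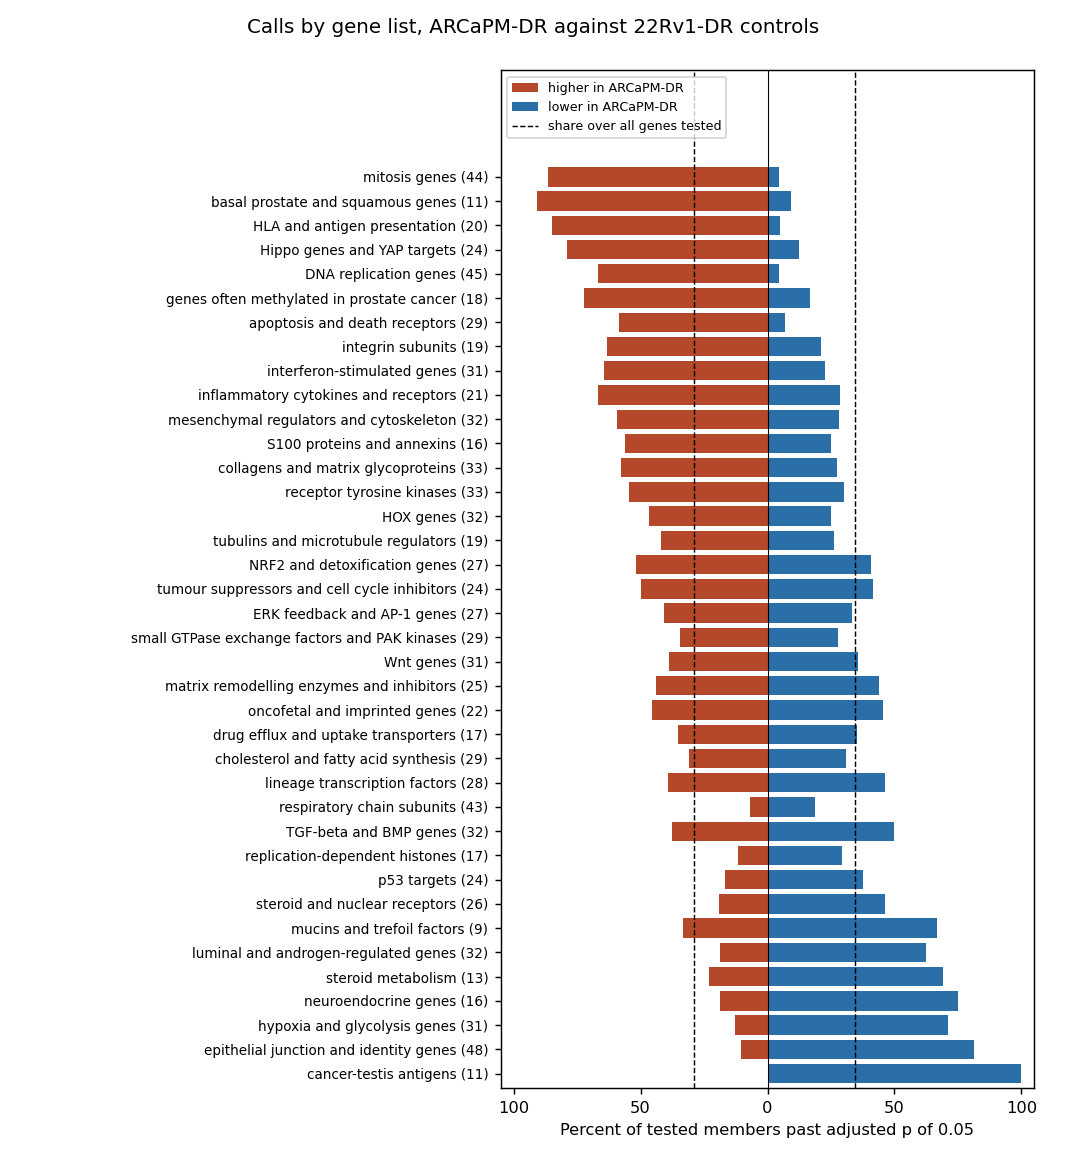
Share of the tested members of each gene list (number tested in brackets) that passed limma's adjusted p of 0.05, higher in ARCaPM-DR controls to the left (red) and lower to the right (blue). Dashed lines mark the shares over all 14165 genes tested, 28.9% higher and 34.3% lower. Mitosis, basal and antigen presentation genes are mostly red and epithelial and hypoxia genes mostly blue. The 11 cancer-testis genes are blue, but passed the filter through 22Rv1-DR alone, so their direction was fixed by it.

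Cancer-testis antigens had few reads in ARCaPM-DR. The 31 listed genes summed to 10.6, 0.876 and 3.84 counts in ARCaPM-DR, against 7500, 7434 and 7241 in 22Rv1-DR. Only 11 were tested, and these passed the filter through 22Rv1-DR alone, so that they were lower was fixed by the filter. MAGEA4 had 2 reads in ARCaPM-DR, against 2388, 2346 and 2179 counts in 22Rv1-DR, and MAGEA1 had 0 reads in ARCaPM-DR, against 575, 469 and 513 counts in 22Rv1-DR. These genes are close copies of each other, so single members are uncertain. Of 18 tested genes often methylated in prostate cancer, 13 were higher (72.2%) and 3 lower (16.7%), against 28.9% and 34.3% of all genes tested. The set was chosen for loss in prostate tumours. GSTP1, a glutathione transferase silenced in most of them, had 2070, 1704 and 1636 counts in ARCaPM-DR, against 2.58, 1.98 and 4.08 in 22Rv1-DR. CAV1, the coat protein of caveolae, had 17175, 16930 and 17178 counts in ARCaPM-DR, against 66.2, 96.2 and 48.1 in 22Rv1-DR. MGMT, which repairs alkylated guanine, had 206, 266 and 200 counts in ARCaPM-DR and 2 reads in 22Rv1-DR.

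A block of neighbouring genes on chromosome 18 was close to unread in ARCaPM-DR. MAPK4, an atypical MAP kinase and the only gene of the 15 most reduced with 0 reads in every ARCaPM-DR control, had 1690, 1454 and 1827 counts in 22Rv1-DR and was at least 1912-fold lower. In RefSeq gene order (GRCh38.p14, used for order only) it is followed by MRO, ME2, ELAC1 and SMAD4. SMAD4, the shared effector of TGF-beta and BMP signalling, had 0, 0 and 5.76 counts in ARCaPM-DR, against 1392, 1264 and 1202 in 22Rv1-DR. ME2, a mitochondrial malic enzyme, had 2.64, 0 and 1.28 counts in ARCaPM-DR, against 1788, 1718 and 1305 in 22Rv1-DR. MRO had 1 read in ARCaPM-DR, against 267, 143 and 121 counts in 22Rv1-DR. ELAC1, a transfer RNA processing enzyme, had 0 reads in ARCaPM-DR, against 45.6, 24.8 and 13.9 counts in 22Rv1-DR. Summed over the 5 genes, ARCaPM-DR controls held 14 reads and 22Rv1-DR controls 16151. The next measured gene on each side was read in both lines. SKA1, a kinetochore protein, had 227, 159 and 235 counts in ARCaPM-DR and 323, 225 and 155 in 22Rv1-DR. MEX3C, an RNA-binding ubiquitin ligase, had 460, 563 and 599 counts in ARCaPM-DR, against 980, 887 and 1029 in 22Rv1-DR. In the 6 ARCaPM-DR libraries with a GATA2 hairpin, no gene of the 5 exceeded 8.77 counts. DU145-DR controls averaged 1317 counts for SMAD4, 853 for ME2, 130 for ELAC1, 22.7 for MRO and 6.35 for MAPK4. A low level of MAPK4 was thus not particular to ARCaPM-DR. The libraries measure RNA only.

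**Figure D5:**
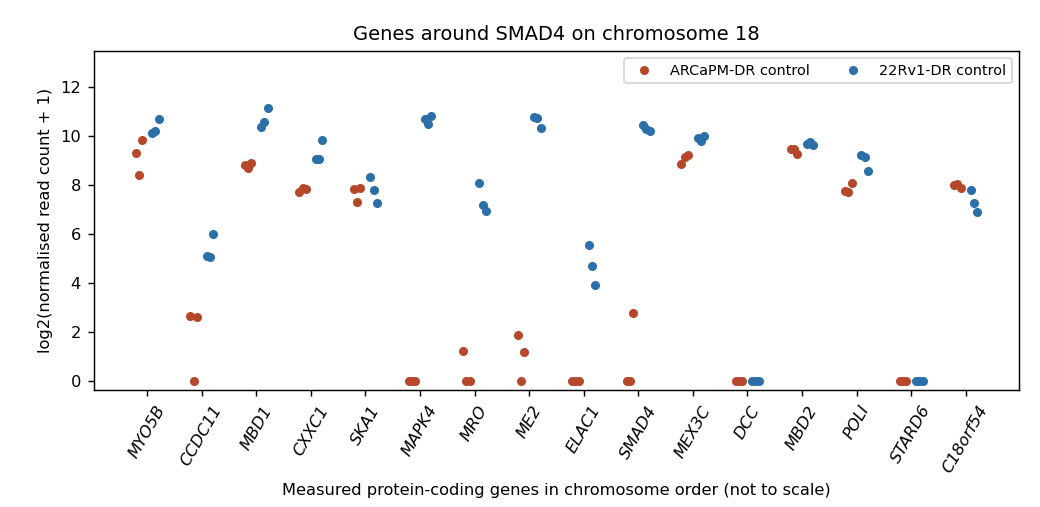
Log2(normalised read count + 1) of measured genes around SMAD4 on chromosome 18 in RefSeq order (spacing not to scale), with ARCaPM-DR controls left (red) and 22Rv1-DR controls right (blue) of each pair, 1 point per library. From MAPK4 to SMAD4 all ARCaPM-DR points lie at or near 0, while SKA1 and MEX3C on either side are read in both lines.

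Such runs were not limited to that block. Among 12961 genes matched to a RefSeq protein-coding gene with a mean of at least 20 in either line, 16 runs of at least 4 neighbours all had a mean under 5 in ARCaPM-DR. There were 3 such runs with a mean under 5 in 22Rv1-DR. Chromosome Y was left out of the search for runs, though its genes count among the 12961. Some of its genes had few reads in 22Rv1-DR controls, and the count of 3 does not cover them. Many runs were gene families. The longest held 14 protocadherin beta genes on chromosome 5, cell-surface proteins of neurons, with 27 reads in ARCaPM-DR and 6618 in 22Rv1-DR. The longest on the other side was 11 genes on chromosome 19 that included PSG1 and 8 other pregnancy-specific glycoproteins, with 18026 reads in ARCaPM-DR and 27 in 22Rv1-DR. The kallikreins KLK1, KLK15, KLK3, KLK2 and KLK4 formed another run, with 8 reads in ARCaPM-DR and 14743 in 22Rv1-DR. In the protocadherin and PSG families the copies are similar, so reads of single members are uncertain.

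The TGF-beta and BMP genes, whose signals SMAD4 carries, were divided. Of 32 tested, 16 were lower (50%, against 34.3% of all genes tested) and 12 higher (37.5%, against 28.9%). ID3, a BMP-induced inhibitor of helix-loop-helix factors, had 25.1, 30.7 and 22.4 counts in ARCaPM-DR, against 2938, 4357 and 4945 in 22Rv1-DR. ID4 of the same family had 0 reads in ARCaPM-DR, against 267, 267 and 259 counts in 22Rv1-DR, at least 305-fold lower. Higher members included INHBA, the activin A subunit, which had 534, 190 and 514 counts in ARCaPM-DR, against 0.86, 3.97 and 2.45 in 22Rv1-DR. NOG, a secreted BMP antagonist, had 202, 281 and 304 counts in ARCaPM-DR and 3 reads in 22Rv1-DR. Among Wnt genes, 12 of 31 were higher (38.7%) and 11 lower (35.5%, close to the share over all genes tested). DKK1, a secreted Wnt inhibitor, had 1831, 1839 and 2186 counts in ARCaPM-DR, against 0.86, 3.97 and 4.89 in 22Rv1-DR. RNF43, a ligase that removes Wnt receptors, had 0 reads in ARCaPM-DR, against 136, 123 and 132 counts in 22Rv1-DR.

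Hypoxia and glycolysis genes were mostly lower in ARCaPM-DR. Of 31 tested, 22 were lower (71%, against 34.3% of all genes tested) and 4 higher (12.9%, against 28.9%). BNIP3, a mitophagy receptor, had 13.2, 6.13 and 12.8 counts in ARCaPM-DR, against 10111, 9618 and 7650 in 22Rv1-DR. ALDOC, a brain-type aldolase, had 5.29, 4.38 and 6.4 counts in ARCaPM-DR, against 4416, 5750 and 5192 in 22Rv1-DR. VEGFA, the vascular growth factor, had 377, 463 and 1008 counts in ARCaPM-DR, against 15296, 20178 and 43788 in 22Rv1-DR. The 4 higher genes included SLC2A3, a neuronal glucose transporter, at 3542, 8039 and 3584 counts in ARCaPM-DR and 6.88, 29.8 and 29.3 in 22Rv1-DR. Of 24 stress genes that p53 induces, 9 were lower (37.5%, near the 34.3% of all genes tested) and 4 higher. CDKN1A, the p21 inhibitor of cyclin-dependent kinases, had 222, 357 and 244 counts in ARCaPM-DR, against 3953, 5524 and 6822 in 22Rv1-DR. Yet PLK2, a polo-like kinase also induced by p53, had 11319, 14440 and 13175 counts in ARCaPM-DR, against 94.6, 163 and 121 in 22Rv1-DR.

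Cell division genes were mostly higher in ARCaPM-DR. Of 44 mitosis genes, 38 were higher (86.4%) and 2 lower (4.55%), with a median log2 fold change of 1.12. Of 45 replication genes, 30 were higher (66.7%) and 2 lower (4.44%), with a median of 0.95. Over all genes tested, 28.9% were higher and 34.3% lower. AURKA, a spindle kinase, had 2405, 1801 and 2144 counts in ARCaPM-DR, against 464, 343 and 177 in 22Rv1-DR. TOP2A, topoisomerase II alpha, had 16478, 14830 and 16056 counts in ARCaPM-DR, against 3454, 2207 and 2834 in 22Rv1-DR. MKI67, the proliferation antigen, had 6734, 8396 and 4264 counts in ARCaPM-DR, against 1900, 1065 and 949 in 22Rv1-DR. The D-type cyclins CCND1 and CCND2 ran in opposite directions. CCND1 had 4246, 3645 and 3504 counts in ARCaPM-DR, against 58217, 42232 and 51709 in 22Rv1-DR. CCND2 had 505, 626 and 568 counts in ARCaPM-DR, against 18.9, 30.8 and 35.9 in 22Rv1-DR. Of the mitosis genes, 8 hold a value that is not a whole number of reads. Without 22Rv1-DR replicate 3, 35 mitosis and 27 replication genes were higher. Respiratory chain subunits depended on that library: 3 of 43 were higher (6.98%) and 8 lower (18.6%) with it, and 3 higher and 19 lower without it. Their median in that library lay -0.88 on the log2 scale from its replicates.

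Genes tied to docetaxel and its removal showed no common direction. ABCB1 had 7016, 6475 and 7745 counts in ARCaPM-DR, against 14950, 12379 and 16129 in 22Rv1-DR, a log2 fold change of -1.03 (SE 0.20, limma adjusted p 0.00178). With shGATA2a the log2 fold change was 0.13 (limma adjusted p 0.647) and with shGATA2b 0.54 (limma adjusted p 0.0352), so the direction was not shared by the hairpin libraries. The change between control and hairpin libraries was not tested here. DU145-DR controls averaged 70231 counts. Of 17 transporters tested, 6 were higher and 6 lower (35.3% each, against 28.9% and 34.3% of all genes tested). ABCG2, the breast cancer resistance pump, had 2.64, 5.26 and 3.2 counts in ARCaPM-DR, against 138, 103 and 89.7 in 22Rv1-DR. ABCC2, an organic anion pump, had 961, 873 and 1138 counts in ARCaPM-DR, against 49.9, 65.5 and 62.8 in 22Rv1-DR. Of 19 tubulin and microtubule genes, 8 were higher (42.1%) and 5 lower (26.3%). TUBB6, a beta-tubulin, had 8550, 10112 and 6814 counts in ARCaPM-DR, against 1244, 1414 and 954 in 22Rv1-DR. The microtubule-stabilising proteins MAP1B and MAP2 were nearly unread in ARCaPM-DR, and MAP2 had 2.64, 1.75 and 3.84 counts there, against 2105, 2053 and 2322 in 22Rv1-DR. Detoxification genes were divided, 14 higher (51.9%) and 11 lower (40.7%) of 27. ALDH1A1, a retinal dehydrogenase used as a stem cell marker, had 33713, 46755 and 34491 counts in ARCaPM-DR, against 2707, 2172 and 1653 in 22Rv1-DR. NQO1, an NRF2 target, had 5546, 4984 and 5125 counts in ARCaPM-DR, against 322, 296 and 245 in 22Rv1-DR.

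Oncofetal and imprinted genes were evenly divided, 10 higher and 10 lower of 22 tested (45.5% each). Over all genes tested, 28.9% were higher and 34.3% lower. IGFBP3, which binds insulin-like growth factors, had 7.93, 5.26 and 5.76 counts in ARCaPM-DR, against 4471, 4668 and 6559 in 22Rv1-DR. IGFBP7 had 3279, 3827 and 3638 counts in ARCaPM-DR, against 1.72, 3.97 and 8.15 in 22Rv1-DR, and IGFBP6 was likewise high in ARCaPM-DR. Among guanine exchange factors and PAK kinases, 10 of 29 were higher (34.5%) and 8 lower (27.6%). PREX1, a Rac activator, had 5.29, 5.26 and 1.28 counts in ARCaPM-DR, against 4269, 3912 and 5768 in 22Rv1-DR, while TIAM1, another Rac activator, had 744, 912 and 600 counts in ARCaPM-DR, against 3.44, 1.98 and 2.45 in 22Rv1-DR. Apoptosis genes were mostly on the ARCaPM-DR side, 17 higher (58.6%) and 2 lower (6.9%) of 29. CFLAR, an inhibitor of death receptor signalling, had 4166, 4018 and 4578 counts in ARCaPM-DR, against 626, 611 and 607 in 22Rv1-DR. S100 proteins and annexins were led by ANXA2, a membrane-binding annexin, at 18211, 15157 and 16620 counts in ARCaPM-DR and 24.9, 39.7 and 39.9 in 22Rv1-DR.

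The remaining genes with the highest and lowest log2 fold changes had mixed roles. OLR1, a scavenger receptor for oxidised lipoprotein, had 1604, 2420 and 875 counts in ARCaPM-DR, against 0.86, 0 and 4.08 in 22Rv1-DR. DCBLD2, a transmembrane receptor, had 9775, 9382 and 10559 counts in ARCaPM-DR, against 12, 12.9 and 9.78 in 22Rv1-DR. SLC17A3, a urate transporter of kidney, had 1350, 623 and 1941 counts in ARCaPM-DR and 2 reads in 22Rv1-DR, 2340-fold higher (95% counting interval 647 to 19326). ZBED2, a zinc finger factor, was also in this set. On the other side SPOCK2, a proteoglycan of the matrix, had 14.5, 12.3 and 16.6 counts in ARCaPM-DR, against 20729, 19604 and 33341 in 22Rv1-DR. HSPB6, a small heat shock protein of muscle, had 9.25, 1.75 and 3.84 counts in ARCaPM-DR, against 9341, 11889 and 4551 in 22Rv1-DR. SMOC1, a calcium-binding matrix protein, had 4 reads in ARCaPM-DR, against 2142, 2382 and 2751 counts in 22Rv1-DR, and C11orf92 and METTL7A were also in this set.

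Markers of other cell types were checked in both lines. Of 10 endothelial markers, 3 were tested and all 3 were higher in ARCaPM-DR, 2 of them under 10 counts in every 22Rv1-DR library. They were led by EMCN at 92.5, 202 and 102 counts in ARCaPM-DR and 2 reads in 22Rv1-DR. The 10 markers summed to 319 to 743 counts in ARCaPM-DR libraries and 43.9 to 63.5 in 22Rv1-DR. The defining endothelial genes PECAM1 and KDR had 0 reads in ARCaPM-DR, and CDH5 and VWF had 4 reads and 1 read. Of 9 fibroblast markers 3 were tested, with 1 higher and 1 lower. They summed to 2366 to 4773 counts in ARCaPM-DR and 1383 to 4299 in 22Rv1-DR, nearly all from COL3A1 and COL1A1 in ARCaPM-DR, while PDGFRB and FAP had 0 reads there. Of 10 blood markers 2 were tested and both were higher, but HBA1, a haemoglobin chain (limma adjusted p 0.0461), lost the call with edgeR (adjusted p 0.0667) and DESeq2 (adjusted p 0.0744). The 10 markers summed to 855 to 1363 counts in ARCaPM-DR and 80.7 to 174 in 22Rv1-DR, mostly from CD68, a lysosomal protein found beyond macrophages. CD3E had 0 reads in ARCaPM-DR and PTPRC, the pan-leukocyte gene, had 1 read. ALB, the liver albumin, had 0 reads in ARCaPM-DR, against 461, 301 and 301 counts in 22Rv1-DR.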

How the data were processed

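RNA was sequenced from 27 libraries, of which the 6 controls of ARCaPM-DR and 22Rv1-DR make the main comparison. Total RNA was column-purified and made into Illumina libraries, per the labels. TopHat2 2.0.9, Cufflinks 1.3.0 and hg19 (GRCh37) are named in the submitters' processing notes. No source used here names the counting program, the scaling tool or the use of strand, so antisense and overlapping genes cannot be told apart. The authors deposited 1 table of normalised signal per gene. Its values were found to be whole multiples of a step per library, that is read counts divided by a size factor, and reads were recovered by dividing by that step. In the 6 libraries 99.874% of the non-zero values were whole, with a tolerance of 0.005 reads. The rest lay in 53 genes, which stayed in the main fit. The test is the one set for normalised values.

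Genes that reached 10 in 3 or more of the 6 libraries were tested with limma 3.58.1 (R 4.3.3, mean-variance trend) on log2(value + 1), with Benjamini-Hochberg adjustment and a threshold of 0.05, and with limma's test against a 2-fold change. This scale understates changes of low genes. "Higher" and "lower" mean past 0.05. The smallest p an exact permutation test of 3 against 3 libraries can give is 0.1, so single genes were not tested that way. For genes at 0 reads in a line, folds are bounds at 3 reads over the group, and for 1 to 3 reads exact 95% intervals are given where a fold is printed. Both cover counting error only. On simulated data (13484 genes, 200 of them changed), the fit recovered 92.9% of genes changed by 1 on the log2 scale. It recovered 100% of those changed by 2, and called 0.04% of unchanged genes. These rates hold for the simulated spread only. Whether that spread matches the spread between the real replicates was not tested, so the rates are not error rates of the real comparison.

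Same-numbered control replicates of the lines did not deviate together (correlations 0.19, -0.05 and -0.09), so the control samples were not treated as paired. The hairpin libraries were not checked in this way. Replicates of a line differed by more than counting noise, with a chi-square per degree of freedom of 11.3 to 98. Alternatives were the pseudocount, the filter, the scaling, the replicate block, the trend, a fit with more libraries, leaving out the 53 genes, leaving out each library, and edgeR 4.0.16 and DESeq2 1.42.0 on recovered reads.

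The comparison, the gene lists and the members were chosen with earlier results of these data known. Named genes were GATA2 and 16 identity genes, the 15 with the highest and the 15 with the lowest log2 fold change among genes passing with non-overlapping libraries, whole values and a mean of at least 200, and up to 6 passing members of each list with the largest fold, of which a part is printed. Some genes that the rule names are not reported here. ESRP1, CRB3, FN1, VDR, FLRT3, SKA1, MEX3C, COL1A1, ESRP2, TMPRSS2, IGF2, the cell type markers PECAM1, KDR, CDH5, VWF, PDGFRB, FAP, CD3E and PTPRC, and the genes of the neighbour runs and around SMAD4 were named outside this rule. Promoters are from RefSeq, GRCh38.p14, and were used for sequence only, never to place the hg19 counts.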

Additional observations from a re-analysis of the deposited data

How the results depend on the processing

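The count of genes passing in controls (8953) kept within 1.5 times of itself under every alternative run. It was 8928 with edgeR, 9218 with DESeq2, 10276 with no filter and 7561 with a filter of 50, and 7734 to 9718 when 1 library was left out. The count over 2-fold (4227) ran from 3814 to 4369 when 1 library was left out, and from 3228 with a filter of 50 to 4792 with no filter. With shGATA2a and shGATA2b, leaving out 1 library gave 7993 to 9648 and 9130 to 9951. The replicate block gave 8713 genes in controls, against 8953 without it. With shGATA2a it gave 10203, against 9292 without it, and with shGATA2b 10532, against 10149. Whether replicate numbers pair the lines was checked in controls only. Leaving out ARCaPM-DR replicate 2 and 22Rv1-DR replicate 3 together, an alternative chosen after seeing the data, gave 9952. The share of calls that were higher ran from 42.9% to 47.9%. Of 5270 values of 265 named genes under these alternatives, 5220 stayed on their side of the threshold, 46 (in 10 genes) lost the call, 4 (HOXB13 and KRT18) gained it and 0 reversed. Of 1760 list counts, 94 moved by over 1.5 times. The 10 genes that lost the call under at least 1 alternative were HSD17B3, HIST1H2AE, HIST1H2AM, HIST1H3D, ATP5G3, NDUFA8, HBA1, PMEL, TUBB3 and UPK1A. For genes at 0 reads in a line, depth leaves a level under the floor of 3 reads undetectable, not absent.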

Other observations

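Genes that define the other line were not always at 0. For the 100 genes with the largest folds on each side in shGATA2b libraries and a mean there of at least 1000 counts, levels in the control libraries were expressed as a percentage of the level in the line that expresses them. In ARCaPM-DR controls 1, 2 and 3 the genes of 22Rv1-DR had a median of 0.244%, 0.181% and 0.24%, with 7, 22 and 2 of 100 at 0 reads. Summed over the 100 genes the level was 1.68%, 1.67% and 1.7%, well above the medians. In 22Rv1-DR controls 1, 2 and 3 the genes of ARCaPM-DR had a median of 0.117%, 0.242% and 0.272%, with 8, 1 and 2 of 100 at 0 reads, and summed levels of 0.131%, 0.277% and 0.287%. The largest folds named above rest on such low levels in the other line, and their part in the size of a fold was not tested.

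Genes of the X chromosome outside the MAGE families also formed runs with few reads in ARCaPM-DR. DACH2, PABPC5, PCDH11X, NAP1L3 and FAM133A had 0 reads in ARCaPM-DR controls and 1688 in 22Rv1-DR controls. BEX1, BEX4, TCEAL8, TCEAL5 and BEX2, small adaptor-like proteins of neurons, had 7 reads in ARCaPM-DR and 10555 in 22Rv1-DR. On chromosome 3 the run of CACNA2D3, LRTM1, WNT5A and ERC2 had the opposite direction, with 4980 reads in ARCaPM-DR and 28 in 22Rv1-DR.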
